A study of Mus musculus with 8 samples.

Results

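The growth hormone (GH) receptor to STAT5 pathway was described in mouse liver through 10 genes, out of 19935 measured genes. The 10 were taken by symbol from a list of pathway, feedback and target genes: the receptor Ghr, its kinase Jak2, the transcription factors Stat5a and Stat5b, the feedback inhibitors Socs2 and Cish, the circulating growth factor system genes Igf1 and Igfals, and the repressors Bcl6 and Cux2. All 10 had a probe set naming that gene alone. Liver RNA of 4 NS-DADm and 4 WT samples was hybridised to Affymetrix arrays, 1 array a sample. In NS-DADm samples both corepressors, NCOR and SMRT, carry mutations of the domain that activates the histone deacetylase HDAC3, and WT samples carry neither. Both groups are male C57Bl/6 mice of 10 to 12 weeks, fed normal chow, kept in cycles of 12 h light and 12 h dark, with tissue labelled zeitgeber time 10 (ZT10), a single time of day. The labels name no promoter, Cre driver or pooling. They also do not state 1 animal per array, so a p-value here refers to the spread among these arrays, which may be technical. GH itself, STAT5 phosphorylation and protein levels were not analysed here.

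GH from the pituitary binds its receptor on hepatocytes, the receptor-bound kinase JAK2 is activated, and phosphorylated STAT5 enters the nucleus and binds DNA. Male rodents secrete GH in pulses and females more continuously, and this pattern sets much of the sex bias of liver genes, with STAT5b the main form in hepatocytes. STAT5 switches on its own inhibitors as well as the IGF-1 gene, and in mouse liver it acts together with BCL6, a male-biased repressor that can compete for the same sites, and CUX2, a female-biased repressor of male-biased genes. BCL6 is also known as a partner of the NCOR and SMRT corepressors.

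Values are log2 intensities, so a difference of 1 is a doubling of signal, and they set no level of one gene against another's. Array medians ran from 7.39 to 7.50. The hepatocyte markers Alb, Ttr, Apoa1 and 6 others (9 measured of 10 listed) averaged 13.60 to 13.65 in NS-DADm arrays and 13.64 to 13.67 in WT arrays, with 0 called in either direction. The number of arrays and the spread between them limit the precision.

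Of the 10 genes, 0 passed an adjusted p of 0.05 in limma's moderated test (Benjamini-Hochberg over all genes), against 54 of all 19935 genes, 0.271%, of which 32 differed by at least 1.5-fold. At an unadjusted p under 0.05 there were 2, Socs2 and Bcl6, against 9.33% of all genes. These were also the 2 whose groups did not overlap, against 5.63% of all genes. Socs2 was higher in all 4 NS-DADm arrays, an order held by 1.80% of all genes, and Bcl6 lower, held by 3.83%. Across the 10 genes 4 differences were above 0 and 6 below, with a median of -0.0096, against -0.011 over all genes. The median absolute difference was 0.12, against 0.054 over all genes. The receptor, the kinase, both STAT5 genes and Igf1 thus had small estimated differences. Socs2 and Bcl6 had the widest, followed by Cish, whose groups overlapped. This contrast between genes was not tested.

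**Figure D1:**
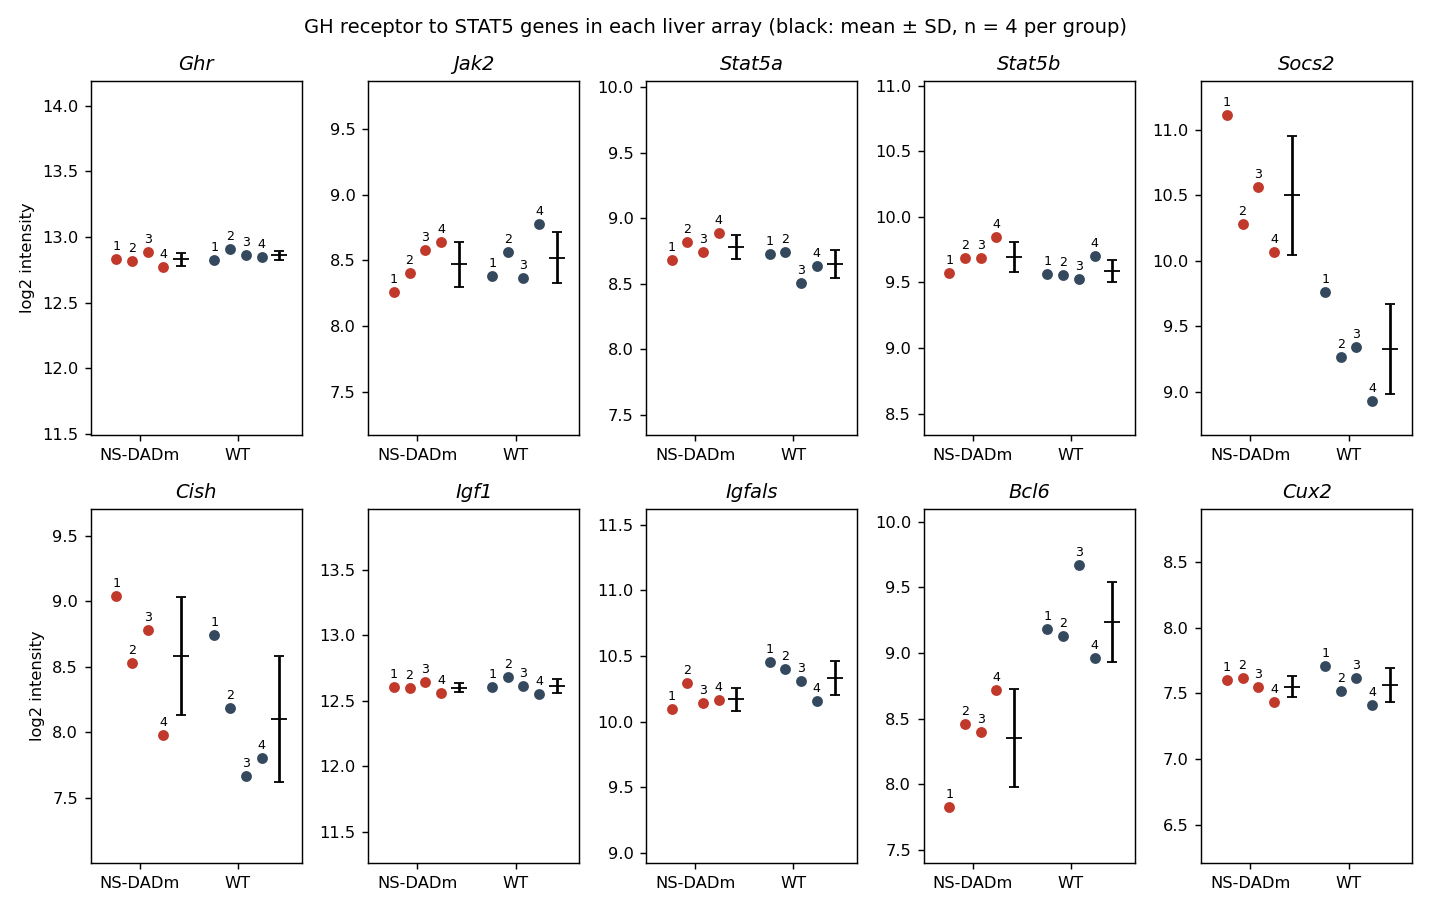
Log2 intensity (vertical axis, the same span in every panel) of the 10 genes in each array, with NS-DADm arrays in red at the left, WT arrays in dark blue at the right, replicate numbers above the points, and the mean ± SD of 4 arrays in black. Socs2 lies above 10 in all NS-DADm arrays and below 9.8 in all WT arrays, Bcl6 has the opposite order, and Ghr and Igf1 are nearly flat.

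Ghr (Entrez Gene 14600, chr15:3317755-3583352 on GRCm38.p6) encodes the receptor that GH binds. It was at 12.83, 12.82, 12.89 and 12.77 in NS-DADm replicates 1 to 4, against 12.82, 12.91, 12.86 and 12.85 in WT replicates 1 to 4. The groups overlapped, and the difference was -0.033 (SE 0.051, 95% confidence interval -0.15 to 0.079, limma adjusted p = 0.948). With this spread the interval reaches no further than 0.15 in either direction.

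Jak2 (Entrez Gene 16452, chr19:29251803-29313095) encodes the tyrosine kinase bound to the receptor. It was at 8.26, 8.40, 8.58 and 8.64 in NS-DADm arrays, against 8.38, 8.57, 8.36 and 8.77 in WT arrays. The ranges lay almost on top of each other, with a difference of -0.050 (SE 0.11, limma adjusted p = 0.970) whose sign turned when NS-DADm replicate 1 (0.019) or WT replicate 4 (0.034) was left out.

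Stat5a (Entrez Gene 20850, chr11:100859351-100885169) and Stat5b (Entrez Gene 20851, chr11:100780731-100859004) are neighbouring genes for the signal-carrying transcription factors, and their proteins are close relatives. Stat5a was at 8.68, 8.82, 8.74 and 8.88 in NS-DADm arrays, against 8.72, 8.74, 8.51 and 8.63 in WT arrays. Stat5b was at 9.57, 9.68, 9.69 and 9.85 in NS-DADm arrays, against 9.57, 9.55, 9.52 and 9.70 in WT arrays. Both were slightly higher on average in NS-DADm livers, with overlapping groups. The differences were 0.13 for Stat5a (95% confidence interval -0.026 to 0.28, limma adjusted p = 0.631) and 0.11 for Stat5b (-0.044 to 0.26, limma adjusted p = 0.713).

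Socs2 (Entrez Gene 216233, chr10:95383903-95417321) is a GH-induced gene whose protein limits receptor signalling, and mice without it grow larger than normal. It was at 11.11, 10.28, 10.56 and 10.06 in NS-DADm replicates 1 to 4, against 9.76, 9.27, 9.34 and 8.93 in WT replicates 1 to 4. Every NS-DADm array lay above every WT array, and within each genotype replicate 1 was the highest and replicate 4 the lowest. The mean was 10.50 ± 0.45 in NS-DADm livers and 9.33 ± 0.34 in WT livers (SD, n = 4 each). This is a log2 fold change of 1.18 (SE 0.22, 95% confidence interval 0.70 to 1.66), 2.26-fold, with a limma adjusted p of 0.0665, which missed the threshold. A wider absolute difference was held by 0.100% of all genes, and the SE of 0.22 stood against a median SE of 0.070 over all genes.

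A second probe set named Socs2 alone. Its NS-DADm values were 8.52, 8.24, 8.23 and 8.14, against 8.07, 7.55, 7.66 and 7.46 in WT arrays, again without overlap. Its difference was 0.60 (SE 0.13, 1.51-fold), with an adjusted p of 0.120 in limma over all probe sets, where the brighter probe set had 0.0741. The 2 probe sets therefore had the same direction and different sizes, and neither passed.

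Without NS-DADm replicate 4 the Socs2 difference was 1.33, with a limma adjusted p of 0.0248. With each of the other 7 arrays left out it missed the threshold, with adjusted p up to 0.247 (without WT replicate 2).

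Cish (Entrez Gene 12700, chr9:107296659-107302784) is the founding SOCS-family gene, an immediate target of STAT5 whose protein binds activated receptors. It was at 9.04, 8.53, 8.78 and 7.98 in NS-DADm arrays, against 8.75, 8.18, 7.67 and 7.81 in WT arrays. The groups overlapped: NS-DADm replicate 4 lay below WT replicates 1 and 2. The mean was 8.58 ± 0.45 in NS-DADm livers and 8.10 ± 0.48 in WT livers (SD, n = 4 each), a difference of 0.48 (SE 0.25, 95% confidence interval -0.076 to 1.04, limma adjusted p = 0.611). It moved to 0.33 without NS-DADm replicate 1 and 0.70 without WT replicate 1.

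Igf1 (Entrez Gene 16000, chr10:87858265-87937047) encodes the growth factor that liver releases under GH. It was at 12.61, 12.60, 12.64 and 12.56 in NS-DADm arrays, against 12.60, 12.68, 12.61 and 12.55 in WT arrays. All 8 arrays lay between 12.55 and 12.68, and the groups overlapped. The difference was -0.0089 (SE 0.051, 95% confidence interval -0.12 to 0.10, limma adjusted p = 0.995), and its sign turned when NS-DADm replicate 4 (0.0055) or WT replicate 2 (0.013) was left out.

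Igfals (Entrez Gene 16005, chr17:24877844-24882011) encodes the acid-labile subunit, which holds IGF-1 in a large complex in blood. It was at 10.09, 10.30, 10.14 and 10.17 in NS-DADm arrays, against 10.45, 10.40, 10.31 and 10.16 in WT arrays. NS-DADm values lay below WT replicates 1 to 3 but around WT replicate 4. The difference was -0.15 (SE 0.074, 95% confidence interval -0.32 to 0.0087, limma adjusted p = 0.570).

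Bcl6 (Entrez Gene 12053, chr16:23965050-23988866) encodes the zinc finger repressor that GH lowers in rodent liver. It was at 7.83, 8.46, 8.39 and 8.71 in NS-DADm replicates 1 to 4, against 9.18, 9.13, 9.67 and 8.96 in WT replicates 1 to 4. All NS-DADm arrays lay below all WT arrays, and the nearest were NS-DADm replicate 4 and WT replicate 4. The mean was 8.35 ± 0.37 in NS-DADm livers and 9.24 ± 0.30 in WT livers (SD, n = 4 each). The log2 fold change was -0.89 (SE 0.19, 95% confidence interval -1.30 to -0.47), 1.85-fold lower, with a limma adjusted p of 0.110, which missed the threshold. A wider absolute difference was held by 0.196% of all genes. Without NS-DADm replicate 4 the difference was -1.01 with a limma adjusted p of 0.0460. Without any other array it missed the threshold, with adjusted p up to 0.265 (without WT replicate 2).

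Cux2 (Entrez Gene 13048, chr5:121857962-122050415) encodes a homeobox repressor with a strong female bias in mouse liver. It was at 7.60, 7.62, 7.55 and 7.44 in NS-DADm arrays, against 7.71, 7.51, 7.62 and 7.41 in WT arrays. The groups overlapped fully, with a difference of -0.010 (SE 0.073, 95% confidence interval -0.17 to 0.15, limma adjusted p = 0.995). The sign turned without NS-DADm replicate 4 (0.028), WT replicate 1 (0.038) or WT replicate 3 (0.0080).

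**Figure D2:**
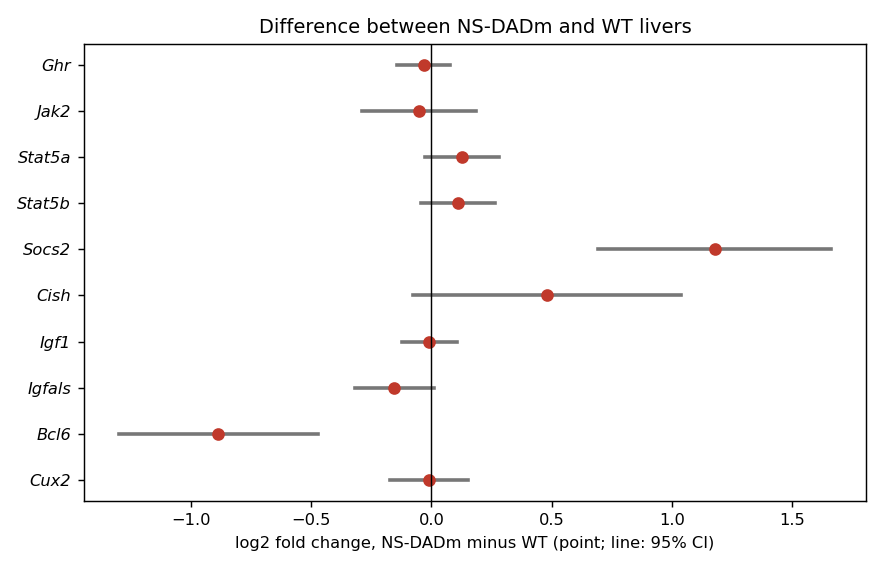
Log2 fold change of each gene, NS-DADm minus WT (horizontal axis), with the point at the estimate and the line its 95% confidence interval from limma, n = 4 arrays per group. The intervals of Socs2 (0.70 to 1.66) and Bcl6 (-1.30 to -0.47) do not touch 0 before adjustment over all genes, and those of the other 8 genes do.

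STAT factors bind the palindrome TTCNNNGAA, and its letters were looked for around the annotated starts of the 10 genes, because Socs2, Cish and Bcl6 are the genes that varied most. The search was chosen after these values were known. RefSeq promoter windows on GRCm38.p6, of 250 bases before to 50 after a start, matched 9 of the 10 genes by symbol (16 windows), without Socs2. The motif reads the same on both strands, so 1 search covers both, and no match in a window overlapped another. It was in 5 of the 16 windows and in 8.30% of all 32851 windows of this length. At least 1 window held it in 3 of the 9 genes (Cish, Bcl6 and Igfals), against 9.55% of all 27025 genes with a window. The 9 genes had more windows a gene than all genes, which favours a match in at least 1. Among all windows 0.457% held at least 2 and 0.0335% at least 3. The Cish window held 2 and the window of the second Bcl6 start held 3. A match of letters is a description, and STAT5 binding in these livers was not analysed here. Below are the 30 bases around both Cish matches (chr9:107296649-107296678, plus strand), the 250 bases before the second Bcl6 start (chr16:23981284-23981533, minus strand) and 30 bases around the match at the first Bcl6 start (chr16:23988951-23988980, minus strand), 5′ to 3′, with the motif in capitals.
Cish: ccgcccagttTTCCTGGAAagTTCTTGGAA
Bcl6, second start: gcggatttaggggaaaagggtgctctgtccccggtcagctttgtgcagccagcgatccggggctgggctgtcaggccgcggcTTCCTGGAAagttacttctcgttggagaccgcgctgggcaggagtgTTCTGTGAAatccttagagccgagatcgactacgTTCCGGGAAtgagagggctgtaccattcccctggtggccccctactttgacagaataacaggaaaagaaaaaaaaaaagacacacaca
Bcl6, first start: agcaaattagTTCTCAGAAttccagaggcc

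The Igfals matches lay in the windows of its first start (chr17:24877598-24877627) and second start (chr17:24878163-24878192), both on the plus strand, and are given for comparison with the Cish pair.
Igfals, first start: gatctataatTTCTCAGAAaagaggctgag
Igfals, second start: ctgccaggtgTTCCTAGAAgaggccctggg
The motif was in none of the windows of Ghr, Jak2, Stat5a, Stat5b, Igf1 and Cux2, which says only that these letters are not in those windows.

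The genes also differed in how far replicates of a genotype lay apart. The SDs were 0.45 in NS-DADm and 0.34 in WT arrays for Socs2, 0.45 and 0.48 for Cish, and 0.37 and 0.30 for Bcl6. For Ghr they were 0.048 in NS-DADm and 0.036 in WT arrays, and for Igf1 0.034 and 0.053. The inhibitors and Bcl6 were thus the genes that varied most within both genotypes, and the receptor and Igf1 the least.

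Whether genes moved together beyond genotype was asked of 6 pairs, using deviations of the 8 arrays from their genotype's mean and exact permutation within genotypes, two-sided. Socs2 and Cish had Pearson r = 0.847 (exact permutation p = 0.0226, adjusted over the 6 pairs 0.0677) and Spearman rho = 0.833 (p = 0.0243, adjusted 0.0729). In both genotypes the array with most Socs2 also had most Cish. Without the 2 arrays farthest from the Socs2 median, NS-DADm replicate 1 and WT replicate 4, r was 0.864 (exact permutation p = 0.0833, n = 6). Neither passed after adjustment.

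Ghr and Igf1 had r = 0.798 (exact permutation p = 0.0156, adjusted 0.0677) and rho = 0.905 (p = 0.00694, adjusted 0.0417), over values that spanned little. Without the 2 arrays farthest from the Ghr median, NS-DADm replicate 4 and WT replicate 2, r was 0.421 (exact permutation p = 0.333, n = 6). Leaving out the farthest arrays narrows the range, so this fall cannot show whether the relation rested on them.

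In NS-DADm arrays Bcl6 was lower where Socs2 was higher, in all 4 arrays (r = -0.982 in these arrays alone). In WT arrays alone r had the opposite sign (0.314), and this difference between genotypes was not tested. Over the 8 deviations r was -0.488 with Socs2 (exact permutation p = 0.286, adjusted 0.430; rho = -0.357, p = 0.448, adjusted 0.672) and -0.635 with Cish (exact permutation p = 0.115, adjusted 0.229; rho = -0.595, p = 0.156, adjusted 0.312). Without the 2 arrays farthest from the median of Socs2 or Cish r was -0.492 and -0.14. For Cish these were NS-DADm replicate 1 and WT replicate 3, and 6 arrays of narrower range cannot show whether the relation rested on them. Igf1 with Igfals had r = 0.443 (exact permutation p = 0.365, adjusted 0.438) and rho = 0.0714 (p = 0.896, adjusted 0.896). Bcl6 with Cux2 had r = 0.0021 (exact permutation p = 0.998, adjusted 0.998) and rho = 0.238 (p = 0.632, adjusted 0.758). These pairs passed by neither r nor rho, and r of Igf1 with Igfals turned to -0.20 without WT replicates 2 and 4.

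**Figure D3:**
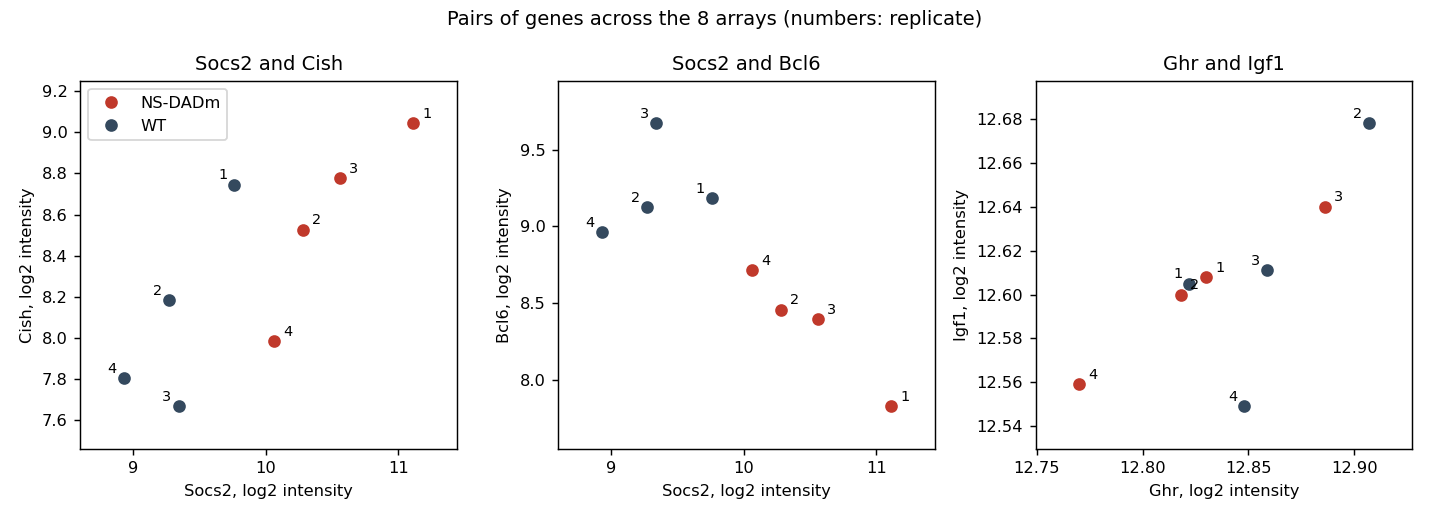
Log2 intensity of one gene against another in the 8 arrays, with NS-DADm in red, WT in dark blue and the replicate number beside each point. The array with the most Socs2 also has the most Cish in both genotypes (r = 0.847 of deviations), Socs2 and Bcl6 fall into 2 separate groups by genotype, and the axes of Ghr and Igf1 cover a far smaller range than the others.

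Some arrays lay at the ends of their genotype for many of the genes. Every gene has a highest and a lowest array in each genotype, so such counts are a description. NS-DADm replicates 2 and 3 were at an end for 2 genes each. NS-DADm replicate 4 was the highest or lowest of its genotype for 9 of the 10 genes: highest for Jak2, Stat5a, Stat5b and Bcl6, lowest for Ghr, Socs2, Cish, Igf1 and Cux2. It was the NS-DADm array nearest to WT for Socs2 and Bcl6. NS-DADm replicate 1 was at an end for 7 genes, highest for Socs2 and Cish and lowest for Bcl6. Among WT arrays replicate 4 was at an end for 7 genes, replicates 1 and 3 for 5 each and replicate 2 for 3. WT replicate 4, like NS-DADm replicate 4, was highest for Jak2 and Stat5b and lowest for Socs2, Igf1 and Cux2.

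Markers of other liver cells moved with the same NS-DADm arrays. The 10 sinusoidal endothelial markers were all below 0, with a median difference of -0.31 and 1 called lower (Dnase1l3), and averaged 9.08, 9.35, 9.37 and 9.69 in NS-DADm replicates 1 to 4, against 9.60 to 9.78 in WT arrays. The 8 stellate cell markers were all below 0 with 0 called, and averaged 8.86, 9.12, 9.22 and 9.68 in NS-DADm arrays, against 9.28 to 9.55 in WT arrays. The 10 Kupffer cell and macrophage markers went the other way, with 9 above 0, 1 below, a median of 0.10 and 0 called. They averaged 8.61, 8.91, 9.26 and 9.66 in NS-DADm arrays, against 8.70 to 9.32 in WT arrays. NS-DADm replicate 1, with the least Bcl6, was the lowest of its genotype for all 3 lists and replicate 4, with the most Bcl6, the highest. WT arrays did not follow this order: replicate 3, with the most Bcl6 (9.67), had the lowest WT stellate (9.28) and Kupffer (8.70) averages. WT replicate 4, with the least Bcl6 (8.96), had the highest WT Kupffer average (9.32). The lowest marker mean in these 3 lists was 7.31, under the median gene mean of 7.59, and detection was not measured. The part of these markers in the Bcl6 and Socs2 values was not tested. In whole tissue fewer cells of a type and less RNA per cell cannot be told apart.

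By likeness of the log2 values over the 8 arrays, the genes nearest to Socs2 among the 19934 others were Oat, an ornithine aminotransferase gene (r = 0.975), Cfap300, a cilia and flagella gene (r = 0.968), and Pcx, the pyruvate carboxylase gene (r = 0.966). With so many genes and 8 arrays that share their genotypes, high values are found by selection alone. Oat was at 13.33, 13.17, 13.33 and 13.01 in NS-DADm arrays, against 12.91, 12.74, 12.79 and 12.57 in WT arrays, a difference of 0.45 with a limma adjusted p of 0.0902. Cfap300 was near the low end of the intensities, at 4.89 to 5.10 in NS-DADm and 4.76 to 4.93 in WT arrays. Their deviations from genotype means had r = 0.902, 0.930 and 0.870 with Socs2, for Oat, Cfap300 and Pcx in that order.

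The rest of the pathway was read from 8 lists with 86 measured of 99 listed genes, written with earlier results of these arrays known. Over these lists 5 genes rose and 1 fell, beside 0.161% of all genes called higher and 0.110% called lower. All 6 belonged to 3 lists of genes taken as outputs of the pathway. None belonged to the 5 lists of signalling parts, IGF genes and transcription factors.

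The 6 measured JAK kinases and STAT factors outside the 10 had 0 called and a median of 0.074. Stat3, the acute phase STAT, was at 11.26, 11.12, 10.77 and 10.85 in NS-DADm arrays, against 10.71, 10.69, 10.64 and 10.72 in WT arrays. These groups did not overlap, with a difference of 0.31 (limma adjusted p = 0.330). Stat2 was at -0.11 (limma adjusted p = 0.740).

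The 6 other SOCS genes had 0 called and a median of -0.0054. Socs7 was at -0.19 (limma adjusted p = 0.427) and Socs3, an inhibitor induced by interleukin-6, at 0.16 (limma adjusted p = 0.832). The 2.26-fold value of Socs2 thus had no counterpart of that size among the family members outside the 10, though that difference between genes was not tested. Of 13 measured receptor adaptors and phosphatases 0 were called, with a median of 0.070. Ptpn2, a phosphatase of JAKs and STATs, was at 0.28 (limma adjusted p = 0.665), and Sirpa, a receptor that recruits phosphatases, at 0.21 (limma adjusted p = 0.804).

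The 13 IGF system genes outside the 10 had 0 called, 10 below 0 and a median of -0.051. Igfbp3, the main carrier of IGF-1 in blood, was at 8.70, 8.82, 9.04 and 9.96 in NS-DADm arrays, against 9.41, 9.70, 9.45 and 9.53 in WT arrays. The first 3 NS-DADm replicates lay below all WT arrays and replicate 4 above them. The difference was -0.39 (limma adjusted p = 0.666), and without NS-DADm replicate 4 it was -0.67 and passed (limma adjusted p = 0.0155). The endothelial marker means had the same order over NS-DADm replicates 1 to 4, and their part in the Igfbp3 values was not tested. Igfbp7 was at -0.28 (limma adjusted p = 0.563).

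Of 12 measured liver transcription factors linked to GH or sex 0 were called, with a median of 0.036, and the 2 widest differences had opposite signs. Onecut1, which encodes HNF6, a factor that GH induces in rat liver, was at 10.46, 10.26, 10.55 and 9.34 in NS-DADm arrays, against 9.93, 9.22, 9.53 and 8.86 in WT arrays. NS-DADm replicate 4 alone lay within the WT range, and the difference was 0.77 (limma adjusted p = 0.388). Nr0b2, which encodes the corepressor SHP, was at 8.12, 8.90, 9.62 and 9.84 in NS-DADm arrays, against 8.98, 10.36, 10.18 and 10.10 in WT arrays. The groups overlapped through WT replicate 1, and the difference was -0.79 (limma adjusted p = 0.571).

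Lipid genes described as raised in mouse liver that lacks the GH receptor, JAK2 or STAT5 were all above 0, 6 of 6, with a median of 0.45. Cidea (0.0053, limma adjusted p = 0.949) and Mogat1 (0.092, limma adjusted p = 0.931) were near 0. Of the 6 genes 2 rose: Cd36, the fatty acid translocase gene, and Pparg, the lipid-sensing nuclear receptor gene. Cd36 was at 10.40, 10.09, 10.27 and 10.10 in NS-DADm arrays, against 8.39, 9.14, 8.87 and 9.33 in WT arrays (difference 1.28, limma adjusted p = 0.0130). Pparg was at 10.02, 9.64, 9.83 and 9.84 in NS-DADm arrays, against 9.14, 9.07, 9.29 and 9.35 in WT arrays (difference 0.62, limma adjusted p = 0.0177). The Cd36 call was lost when WT replicate 2 (limma adjusted p = 0.0539) or WT replicate 3 (0.0534) was left out. The Pparg call was lost when NS-DADm replicate 3 (limma adjusted p = 0.0645) or WT replicate 1 (0.0609), 2 (0.0867) or 3 (0.0534) was left out.

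Sex-biased liver genes were called in both lists, and whether the GH pathway moved them in these livers was not tested. Of 12 measured female-biased genes 3 rose, the cytochrome P450 genes Cyp2b9 (9.67-fold) and Cyp17a1 (3.01-fold) and the proton pump subunit gene Atp6v0d2 (2.83-fold). The list median was 0.32, with 9 of 12 above 0 and 3 below. Of 18 measured male-biased genes 1 fell, the cytochrome P450 gene Cyp2u1 (-0.48, limma adjusted p = 0.0320). The list median was -0.19, with 12 of 18 below 0 and 6 above. That median was -0.11 without NS-DADm replicate 4, and -0.18 to -0.20 without any 1 other array. Gstp1, a male-biased glutathione transferase gene, had the second-widest difference of that list, -0.43 (limma adjusted p = 0.0511). It passed with the filter at the median level, quantile normalization, trended and robust variances or array weights (limma adjusted p = 0.0125 to 0.0467), and when NS-DADm replicate 4 was left out (-0.50, limma adjusted p = 0.00547). The Cyp2u1 call held when NS-DADm replicate 4 or WT replicate 3 was left out, and was lost with each of the other 6 arrays (limma adjusted p = 0.0757 to 0.166) and after median subtraction (0.0553). The Cyp2b9 call was lost with trended and robust variances (limma adjusted p = 0.0863). Without WT replicate 2, Cyp17a1 and Atp6v0d2 were the 2 genes still called over all 8 lists.

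**Figure D4:**
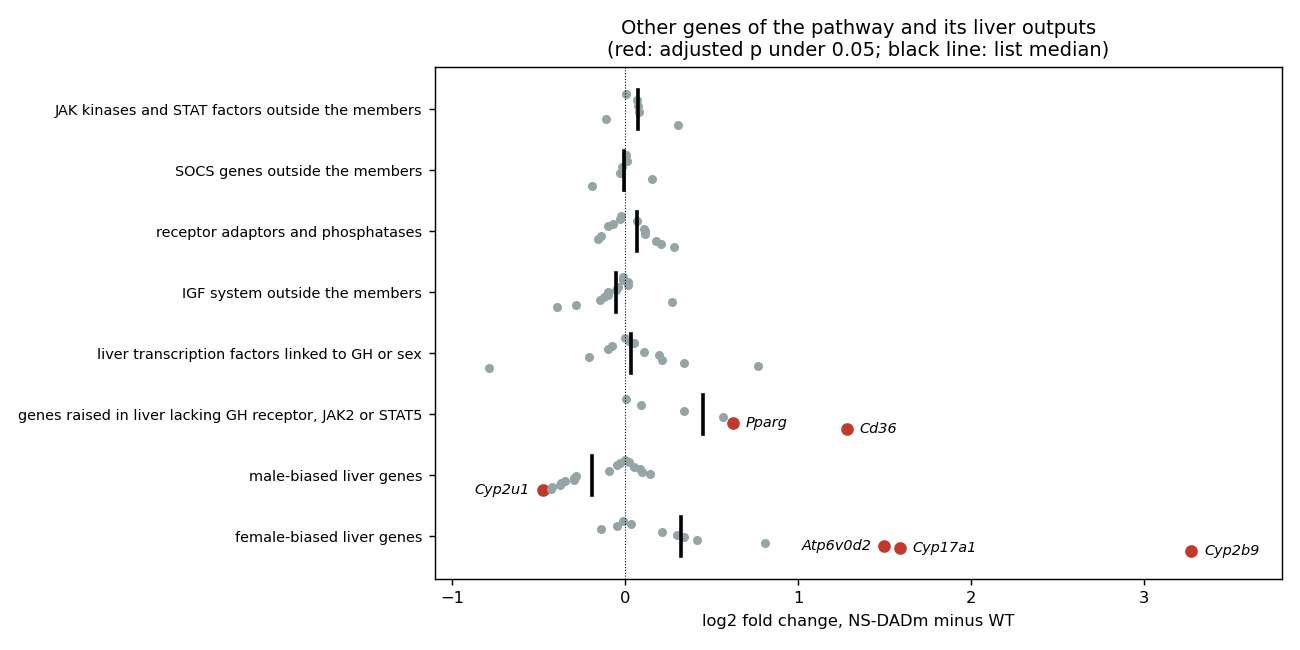
Log2 fold change, NS-DADm minus WT (horizontal axis), of the 86 measured genes in 8 lists around the pathway, 1 point a gene, with genes past an adjusted p of 0.05 in red and named, and the median of each list as a black line. The 5 lists of signalling parts, IGF genes and transcription factors hold no red point. The 3 lists of genes taken as outputs hold 2, 1 and 3.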

How the data were processed

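Liver RNA of 4 NS-DADm and 4 WT samples was read on Affymetrix arrays. The values deposited by the authors were taken as log2 intensities, a scale read from the values (3.43 to 14.37). The authors' tools were Partek and RMA, per the submitters' processing notes, and their versions and order stand as not given in the sources used here. RMA compresses small differences at low intensity.

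Of 28270 probe sets 21780 named 1 gene in the platform annotation, 1617 several and 4873 none here. Symbols were updated by Entrez Gene identifier (GRCm38.p6, 19852 of 19935 genes matched). Where several probe sets named a gene the one of highest mean was used, and no filter was applied. The 2 genotypes were set against each other in R 4.3.3 with limma 3.58.1 (lmFit, eBayes, two-sided, Benjamini-Hochberg over all genes, threshold 0.05), which was tested on simulated data. Errors are SDs over 4 arrays. Python 3.11.15, pandas 2.3.3 and matplotlib 3.10.9 made tables and figures.

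The members and lists were chosen with earlier results of these data known. Named were all 10 members and their probe sets, up to 4 called genes per list and direction, or where fewer than 2 were called the widest differences up to 2 in all, and the 3 genes most like the member with the smallest p. Dnase1l3, Cidea, Mogat1 and the hepatocyte examples fall outside this rule. No scan date or batch was used.

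Alternatives were the mean of probe sets, all probe sets, a filter at the median level, quantile normalization, median subtraction, array weights, variances with a trend and robust fit, the replicate block, and each array left out. Deviations of same-numbered arrays had r = -0.102 to 0.247, against -0.316 to 0.258 for arrays of different numbers. The numbers were not taken as pairs in the main fit, though so few values of r cannot settle whether they pair the arrays.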

Additional observations from a re-analysis of the deposited data

How the results depend on the processing

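Over 16 alternatives a gene, none of the 10 genes turned its direction except Jak2, Igf1 and Cux2, whose differences are near 0. With 1 array left out Jak2 ran from -0.11 to 0.034, Igf1 from -0.029 to 0.013 and Cux2 from -0.061 to 0.038. Cux2 lies under the median level and was not tested with that filter. Socs2 and Bcl6 passed with array weights (1.15, adjusted p = 0.0395, and -0.995, adjusted p = 0.0448 in limma). The count of the 10 genes called was 0 in the main setting, 2 with array weights, and 0 to 2 with 1 array left out. All genes called were 54, or 109 with array weights and 13 to 126 with 1 array left out. Genes called over the 8 lists were 6, and 2 to 8 with 1 array left out. With the replicate block 1 of the 10 genes (Socs2, 1.18, adjusted p = 0.000849 in limma) and 105 of all genes were called. Deviations of same-numbered arrays had r = 0.146, 0.0483, -0.102 and 0.247, against -0.316 to 0.258 for arrays of different numbers. NS-DADm replicate 2 was closest to WT replicate 1. So few values of r cannot settle whether the numbers pair the arrays. The relation of Igf1 with Igfals turned to -0.20 without 2 arrays. The cause of these changes was not tested. Without detection calls, signal over background stayed unmeasured.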

Other observations

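Markers of cell types that bulk liver can hold in small numbers had 0 called in either direction. The 6 neutrophil markers were all above 0 with a median of 0.12, averaging 6.27 to 6.42 in NS-DADm arrays and 6.15 to 6.32 in WT arrays. The 6 measured B and T lymphocyte markers had a median of 0.035 and averaged 6.31 to 6.51 in NS-DADm arrays and 6.29 to 6.46 in WT arrays. The 5 measured cholangiocyte markers (median 0.0053) averaged 6.79 to 6.99 in NS-DADm arrays and 6.79 to 6.94 in WT arrays, and the 4 adipocyte markers (median -0.029) averaged 6.38 to 6.51 in NS-DADm arrays and 6.29 to 6.61 in WT arrays. All 4 lists lay below the array medians, and their part in the values of the GH receptor to STAT5 genes was not tested.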
